A study of Mus musculus with 2 samples.

Results

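The cells described here are 553 macrophages of the light-damaged mouse retina that carried transcripts of Gpnmb, Ms4a7 or Fabp5 and few transcripts of the genes that mark microglia. They were found among 6821 cell barcodes of the light-damaged library and 10824 barcodes of both libraries of the study. They were chosen by measured values in that library. A barcode had to hold at least 300 genes and at most 10% mitochondrial counts of unique molecular identifiers (UMIs, which count single transcripts). Per 10000 UMIs of the cell, Gpnmb, Ms4a7 and Fabp5 had to sum to at least 5, and 5 microglial genes (P2ry12, Tmem119, Siglech, Gpr34 and P2ry13) to under 10. The sum of the perivascular macrophage genes Mrc1, F13a1, Cd163, Lyve1 and Cbr2 had to stay under 10, that of the major histocompatibility complex (MHC) class II genes Cd74, H2-Aa, H2-Ab1 and H2-Eb1 under 100, and Lgals3 under 20. They are set beside 4655 microglia of the same library, in which the 5 microglial genes summed to at least 20.

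Microglia are the resident macrophages of the retina. They are maintained by the transcription factor Sall1 and by transforming growth factor beta, and they display P2ry12, a receptor for extracellular nucleotides, and Tmem119 on their surface. When photoreceptors die, macrophages with other surface genes are also found in the retina. Gpnmb encodes a glycoprotein of lysosomes and the cell surface that is made by macrophages laden with debris or lipid, Ms4a7 a membrane protein of macrophages outside the nervous tissue and at its borders, Fabp5 an intracellular carrier of fatty acids, Acp5 a lysosomal acid phosphatase also made by osteoclasts, and Clec12a an inhibitory lectin receptor of myeloid cells.

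Both groups were male CB6F1 mice, 8 months old, with a Cx3cr1-YFP reporter, in which the promoter of the fractalkine receptor gene drives a yellow fluorescent protein. For each group, the retinas of between 5 and 8 mice went into a single pool and were digested with collagenase and DNase. Live YFP-positive cells were sorted, and a 10x Genomics library of transcript 3' ends was made from each pool. The control group had no light damage. For the light-damaged group the protocol gives dark adaptation overnight, pupils dilated with atropine and phenylephrine, LED light of 10 klux for 4 h and then 5 days in normal light. Each group was 1 pool and 1 library, so there is no replicate and no test between groups, and cells of a library are not replicates. All ratios below are descriptions, and their 95% intervals cover counting error only.

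Of the light-damaged barcodes, 6799 passed the limits on genes and mitochondrial UMIs, and of 4003 control barcodes, 3948. The libraries shared 47 barcodes, which 2 of the macrophages carried. Without the shared barcodes 551 macrophages were left and the counts of genes over 2-fold higher and lower than in the light-damaged microglia were the same; the other comparisons were not run without them. The macrophages held a median of 10632 UMIs and 2432 genes per cell and 6330937 UMIs in all; the microglia held a median of 6877 UMIs and 35243524 UMIs in all. Levels below are UMIs of a gene per 1000000 UMIs summed over a population, or CPM.

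The macrophages made up 8.13% of the passing light-damaged barcodes (exact Clopper-Pearson interval 7.49 to 8.81). The same limits found 32 of 3948 in the control library, 0.811% (0.555 to 1.14). The sort was for YFP, and the level of Cx3cr1, whose promoter drives it, was 384 CPM in the macrophages and 937 CPM in the light-damaged microglia. What the sort did to the share was not tested. The minimum depth of a barcode was 3059 UMIs in the light-damaged and 1227 UMIs in the control library, and at 2000 UMIs a single UMI meets the limit of 5 per 10000.

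The genes that chose the cells are given first, as a description of the choice. Ms4a7 stood at 1123 CPM in the macrophages and 20.3 CPM in microglia, Fabp5 at 893 against 27.04 CPM, and Gpnmb at 769 against 7.94 CPM. Ms4a7 was the widespread one of these: 532 of the 553 macrophages had a UMI of it (96.2%), against 309 for Fabp5 (55.9%) and 239 for Gpnmb (43.2%). In 219 cells only 1 of the genes had a UMI, in 141 cells 2 and in 193 cells all 3. Per 10000 UMIs, the median cell held 9.94 of Ms4a7, 0.968 of Fabp5 and 0 of Gpnmb, and the highest cell 49.8, 70.1 and 84.0 in the same order. A cell of this description is thus in most cases an Ms4a7 cell, and the label's other gene, Gpnmb, belongs to a part of them that is described further below. As a background, a UMI of Ms4a7 was seen in 6.25% and of Gpnmb in 4.75% of the microglia, at their lower depth.

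The limits run through a range of cells and not through a gap. Between 5 and 7.5 per 10000 of the first sum there were 70 macrophages, and between 2.5 and 5 there were 63 cells that met all other limits. These sat at 491 and 287 CPM of Ms4a7 and at 178 and 100.4 CPM of Acp5. The microglial sum lay between 8 and 10 in 94 macrophages and between 10 and 12 in 98 cells just outside, with 405 and 297 CPM of Gpnmb. Lgals3 lay between 15 and 20 in 44 macrophages and between 20 and 25 in 36 cells just outside, with 1604 and 2100.2 CPM of Gpnmb. The MHC class II sum had few cells at its limit, 6 between 75 and 100 and 7 between 100 and 125.

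In all, 245 cells met every limit except that their microglial sum lay between 10 and 20. Their levels were 932 CPM of Ms4a7, 304 CPM of Gpnmb, 155 CPM of Clec12a, 114 CPM of Acp5, 70188 CPM of Apoe and 28.2 CPM of Sall1. Each of these was between the level in the macrophages and that in the microglia. The first sum of at least 5 was asked of them too, so their Ms4a7 and Gpnmb were partly set by the choice. A further 567 cells had a microglial sum between 10 and 20 but a first sum under 5. In those, Acp5 stood at 12.7 CPM, Clec12a at 24.9 CPM, Apoe at 23294 CPM and Sall1 at 59.8 CPM. Of the microglia, 75 also had a first sum of at least 5. In them Ms4a7 stood at 503 CPM, Clec12a at 64.97 CPM and Sall1 at 80.9 CPM. They were not held to the MHC class II limit, and Cd74 stood at 1487 CPM in them (499 CPM in the macrophages).

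**Figure D1:**
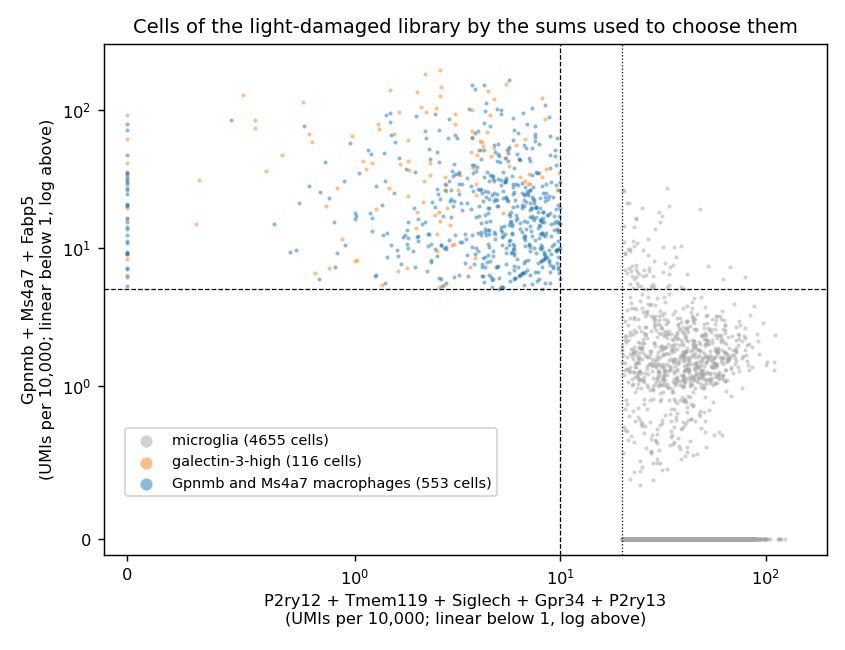
Each point is 1 cell of the light-damaged library, with the summed level of the 5 microglial genes on the horizontal axis and of Gpnmb, Ms4a7 and Fabp5 on the vertical axis, both in UMIs per 10000 and drawn linear below 1 and logarithmic above. Dashed lines mark the limits of 5 and 10 that chose the 553 macrophages, the dotted line the limit of 20 for the 4655 microglia; cells between 10 and 20 are not drawn, and the 116 galectin-3-high cells lie in the same field as the macrophages.

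The label of macrophages was set beside marker lists. All 10 general macrophage genes measured stood at 20 CPM or more. Adgre1, which encodes the macrophage antigen F4/80, stood at 471 CPM (microglia 306) and the Fc receptor gene Fcgr1 at 283 CPM (microglia 403). Cd68 stood at 834 CPM (microglia 512) and Csf1r, the receptor for the growth factor of macrophages, at 796 CPM (microglia 2661). Of the 10, 2 were over 2-fold higher than in microglia, 3 lower (Csf1r, Itgam and Mertk) and 5 within 2-fold (median log2 ratio -0.45). Microglia are macrophages too, so this list does not separate the populations. Such counts are to be read beside 5.85% higher and 9.04% lower over 5211 genes with at least 20 CPM in either population. Of 13 monocyte markers, 4 reached 20 CPM in either population and 3 of these were over 2-fold higher than in microglia: Ms4a4c at 200.4 CPM, the chemokine receptor gene Ccr2 at 33.6 against 2.87 CPM and Plac8 at 25.1 against 4.597 CPM. Ly6c2, which defines classical monocytes, stood at 5.05 CPM and Chil3 at 3.95 CPM. The summed level of the 13 was 315 CPM in the macrophages, 44.5 CPM in the microglia and 757 CPM in MHC-II-high cells, and 94 macrophages (17.0%) had a UMI of Ccr2.

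Markers of perivascular macrophages outside the limits were partly shared, by counts to be read beside 5.85% higher and 9.04% lower over all genes tested. Of 9 such genes 6 were tested, and 3 were over 2-fold higher than in microglia and none lower (median log2 ratio 1.99): Pf4 at 62.7 against 3.83 CPM, Ms4a6c at 724 against 79.5 CPM and the growth factor gene Igf1 at 107 against 4.94 CPM. The 9 summed to 1218 CPM in the macrophages, 386 CPM in the microglia and 2501 CPM in the perivascular cells, and the defining gene Cd209f was at 0.

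Markers of several cell types outside the macrophage lineage were at or near 0. The 6 genes of T and natural killer cells measured were all at 0. Of 6 neutrophil genes 4 were at 0, S100a9 among them, and the 6 summed to 5.21 CPM. Of 9 genes of pigment epithelium and melanocytes 5 were at 0 and the list summed to 1.42 CPM, which bears on Gpnmb because pigment cells also make it. Of 9 osteoclast genes, a cell type that shares Acp5 and Gpnmb, 3 were at 0 (Calcr, Mmp9 and Oscar), Ctsk stood at 0.158 CPM and Atp6v0d2 at 4.58 CPM. The lists of cones, bipolar cells, endothelium and pericytes summed to between 2.69 and 9.48 CPM, that of B cells to 14.5 CPM and that of dendritic cells to 36.5 CPM. The 6 genes of Müller glia and astrocytes summed to 205 CPM, nearly all of it Glul (196 CPM), the gene of glutamine synthetase, and to 651 CPM in the microglia. Rod photoreceptor transcripts were as high as in microglia, with Sag, the gene of rod arrestin, at 26.9 CPM in the macrophages and 27.5 CPM in the microglia, and the 9 rod genes at 139 and 123 CPM in sum.

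The comparison with light-damaged microglia asked which other genes went with the choice. Of 5211 genes with at least 20 CPM in either population, the 18 genes of the limits left out, 305 were over 2-fold higher in the macrophages (5.85% of those tested) and 471 over 2-fold lower (9.04%); 261 and 328 of these had a whole interval beyond 2-fold. The other 4435 were within 2-fold. The median log2 ratio was -0.18, and scaling with the trimmed mean of M values (TMM) shifted it by 0.17 and gave 369 higher and 355 lower, so which direction held more genes depended on the scaling, and genes near 2-fold can cross the limit with it. These genes belong to the same contrast as the limits and are described, not tested.

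The 30 highest of the genes with at least 100 CPM in the macrophages were between 5.50-fold and 41.8-fold higher than in microglia. Acp5 (chr9:22126727-22135711, minus strand, GRCm38) led them, with 1488 UMIs or 235 CPM in the macrophages and 5.62 CPM in the microglia, 41.8-fold higher (95% interval 36.05 to 48.8). A UMI of it was seen in 331 of 553 macrophages (59.9%) and in 140 of 4655 microglia (3.01%). With every cell thinned to 2500 UMIs the shares were 31.3% and 1.07%. The lectin receptor gene Clec12a (chr6:129342691-129365303, plus strand) stood at 174 against 4.597 CPM, 37.8-fold higher (95% interval 31.995 to 44.8), and thinned shares of cells with a UMI were 34.4% and 0.838%. Clec4n, which encodes the fungal pattern receptor dectin-2, stood at 119.9 against 3.01 CPM, 39.9-fold higher (95% interval 32.5 to 49.3). Of the 5 marker genes given for these cells, Acp5 and Clec12a were the 2 that the limits did not use.

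Among the rest were genes of lipid handling, secretion and microbial killing. Apoe, the gene of the main lipid-carrying protein of the nervous system, was the most abundant of the 30: 79417 CPM in the macrophages and 10726 CPM in the microglia, 7.404-fold higher (95% interval 7.37 to 7.44). Lyz2, the gene of lysozyme, stood at 22756 against 1892 CPM; 21.9% of the 50-base words near its 3' end also occur in another gene, so its count is uncertain by what the counting did with such reads. Spp1, which encodes the secreted phosphoprotein osteopontin, stood at 3689.8 against 111 CPM, 33.3-fold higher (95% interval 32.2 to 34.5). Pla2g7, the gene of a secreted phospholipase that inactivates platelet-activating factor, was 29.4-fold higher at 239 CPM. Cybb, the gene of the catalytic subunit of the phagocyte oxidase, was 11.3-fold higher at 406 CPM. Igf1, the gene of a growth factor, stood at 107 against 4.94 CPM, 21.6-fold higher (95% interval 18.3 to 25.7).

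The 30 also held genes of the cell surface and cytoskeleton, namely Dab2, an endocytic adaptor (9.79-fold), Sdc4, a heparan sulfate proteoglycan (9.45-fold), Mmp14, a membrane-bound matrix protease (6.86-fold), Lgals1, the gene of galectin-1 (6.88-fold), Vim, the gene of the filament protein vimentin (5.502-fold), and Gsn, the gene of the actin-severing protein gelsolin (10.9-fold). The interferon-inducible Mndal and Ifi203, from 1 gene cluster, were 33.6-fold and 30.2-fold higher, and 24.0% and 11.7% of their 3' words also occur in other genes. Ccl7, Cxcl1, Cxcl2 and Il1rn were among the 30 as well and came from a part of the cells, as described below.

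The 20 lowest genes, among those with at least 100 CPM in microglia, held many genes known from microglia and were between 7.19-fold and 37.6-fold lower. Sall1, the transcription factor that keeps microglial identity, had 21 UMIs or 3.32 CPM in the macrophages and 125 CPM in microglia, 37.6-fold lower (95% interval 24.6 to 60.8). It had a UMI in 19 of 553 macrophages (3.44%), fewer by share than in microglia (56.1%), although the macrophages were sequenced more deeply. Sparc, the gene of a secreted matrix-binding protein, stood at 109 against 2984 CPM, 27.3-fold lower (95% interval 25.4 to 29.5). The adhesion receptor genes Adgrg1 and Selplg were 29.8-fold and 9.13-fold lower, the adenosine receptor gene Adora3 21.7-fold and the immune checkpoint gene Lag3 13.8-fold lower. Of 19 microglial markers outside the limits, 15 were over 2-fold lower and none over 2-fold higher, with a median log2 ratio of -1.90. These include the fructose transporter gene Slc2a5 (0.948 against 76.1 CPM) and Cst3, the gene of cystatin C (5993 against 29925 CPM). Fcrls, P2ry6, Itgb5 and Tgfbr1 were within 2-fold, with Fcrls at 491 against 286 CPM.

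**Figure D2:**
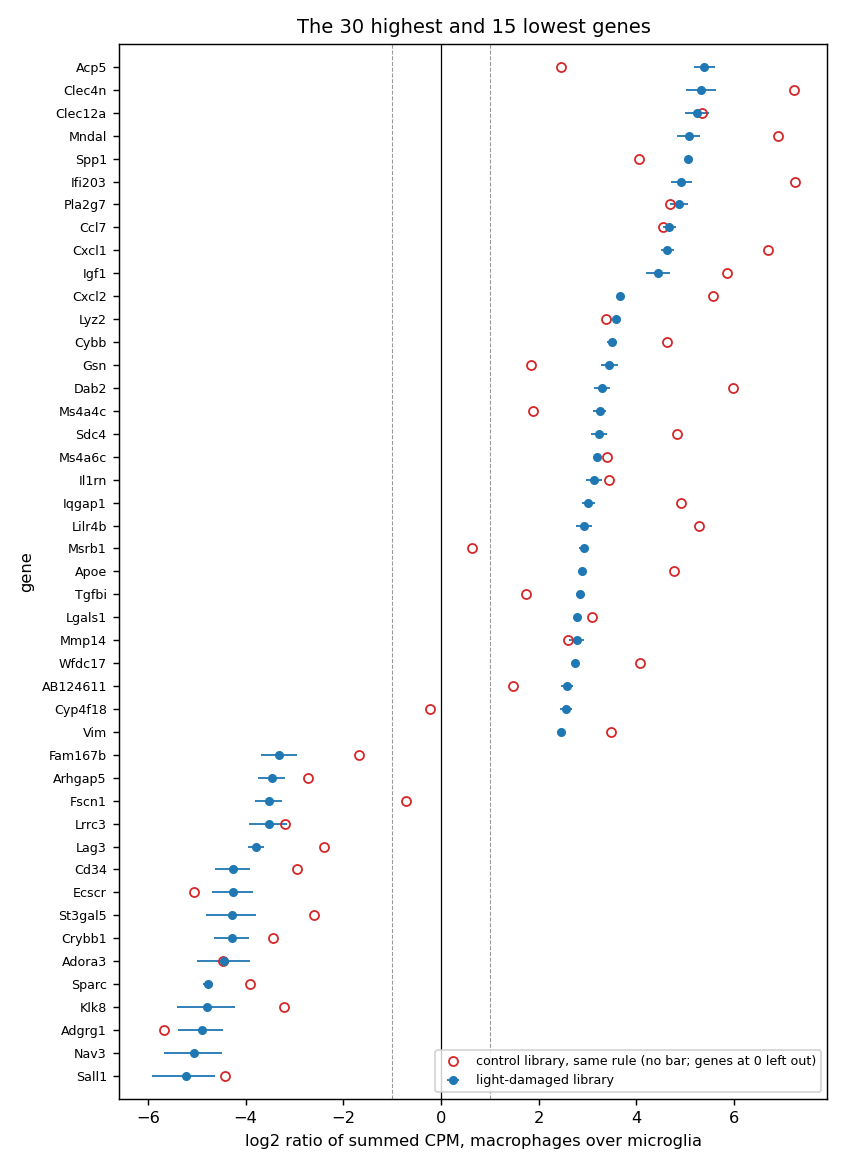
Log2 ratio of summed CPM in the macrophages to that in microglia, for the 30 highest and 15 lowest genes. Filled points with bars give the light-damaged library with 95% counting intervals and open points the 32 control cells that met the same limits against control microglia; Acp5 is at the top at 41.8-fold and Sall1 at the bottom at 37.6-fold lower.

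Gene lists were then set against the same contrast, each with the number of its tested genes, to be read beside 5.85% higher and 9.04% lower over all genes. Lipid handling lay on the higher side. Of 16 tested lipid genes 10 were over 2-fold higher and none lower, with a median log2 ratio of 1.88. Besides Apoe they were the lipid droplet coat gene Plin2 (316 against 57.5 CPM), the cholesterol exporter genes Abca1 (102 against 31.7 CPM) and Abcg1 (89.1 against 21.1 CPM), the scavenger receptor gene Msr1 (95.4 against 10.8 CPM), the phospholipid transfer protein gene Pltp (5.64-fold), Apoc1 (3.35-fold), the fatty acid carrier gene Fabp3 (4.05-fold), Hilpda (5.299-fold) and the cholesterol hydroxylase gene Ch25h (4.87-fold). The lipid receptor gene Trem2 and the lipase gene Lpl, which are linked to activated microglia, were within 2-fold and stood lower in the macrophages, at 1497 against 2245 and 41.4 against 58.9 CPM.

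Lysosomal genes were abundant in both populations and mostly alike. Of 34 tested, 31 were within 2-fold, 2 (Acp5 and Plin2) over 2-fold higher and 1 (Ctsl) over 2-fold lower, and the median log2 ratio was 0.20. The cathepsin genes differed among themselves: Ctsb stood at 7506 against 3939 CPM, Ctsd at 12323 against 12862, Ctss at 6667 against 11849.8 and Ctsl at 706 against 2068 CPM. Plin2, the lipid droplet coat gene, was on this list and is counted in the lipid list too. Acp5 and Ctsl were thus the lysosomal exceptions in a list that otherwise lay within 2-fold. Of 19 genes linked to disease-associated microglia, 4 were higher (Apoe, Spp1, Lyz2 and Lilrb4a), 4 lower (Cst7, Cd9, Ctsl and Ccl6) and 11 within 2-fold; 99.5% of the 3' words of Lilrb4a also occur in another gene, so it and its neighbour Lilr4b are uncertain.

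Genes for the recognition of dying cells lay on both sides. Of 15 tested, 2 were over 2-fold higher, Msr1 and the inhibitory receptor gene Cd300lf (2.58-fold). Mertk, the gene of the receptor with which phagocytes engulf dying photoreceptors and other cells, stood at 29.1 against 97.3 CPM, and its bridging ligand gene Pros1 at 30.5 against 203 CPM, both over 2-fold lower. Its relative Axl stood at 246 against 150.4 CPM and the ligand gene Gas6 at 148 against 177 CPM, within 2-fold. The complement genes C1qa, C1qb and C1qc were within 2-fold as well, with C1qa at 7001 against 11338 CPM. The integrin genes of complement receptor 3, Itgam and Itgb2, stood at 133 against 458 and 166 against 337 CPM, and properdin (Cfp), which stabilises the complement convertase, at 29.5 against 2.298 CPM.

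The relatives of Ms4a7 lay on the higher side. All 4 that were tested were over 2-fold higher (median log2 ratio 2.79): Ms4a6c at 724 against 79.5 CPM, Ms4a6b at 332 against 63.1, Ms4a6d at 391 against 146 and Ms4a4c at 200.4 against 21.1 CPM. They lie in 1 cluster on chromosome 19 with Ms4a7, and Ms4a1, the B cell member, was at 0. Of 17 tested C-type lectin and inhibitory receptor genes 9 were higher, 2 lower and 6 within 2-fold (median 1.15); besides Clec12a and Clec4n, Siglec1, the sialic acid receptor of tissue macrophages, stood at 40.4 against 3.09 CPM, and Sirpa, the gene of the receptor for the signal CD47, was lower at 223 against 452 CPM. All 6 Fc receptor genes were within 2-fold. All 8 tested MHC class I genes were within 2-fold too, with B2m at 7618 against 6708 CPM.

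Among genes of secreted factors, more were over 2-fold higher than lower, and 1 group of the cells weighed on the medians. Of 20 tested chemokine and chemokine receptor genes, 10 were over 2-fold higher and 3 lower (median log2 ratio 0.99). Cxcl2, which recruits neutrophils, stood at 2839.6 against 225 CPM, the monocyte attractants Ccl2 at 446 against 88.95 and Ccl7 at 374 against 14.6, Cxcl16 at 498 against 159 and the receptor gene Cxcr4 at 60.7 against 5.53 CPM. The receptor gene Cx3cr1 and the chemokine gene Ccl6 were among those over 2-fold lower. Of 18 tested cytokine genes 6 were higher and 1 lower (median 0.42): Il1b at 1081 against 197 CPM, its antagonist Il1rn at 132 against 15.1, Il10 at 69.03 against 3.18, Il18bp at 40.3 against 4.68, Tnfsf9 at 48.8 against 7.75 and Osm at 154 against 59.2 CPM. Without sub-cluster 2 of the macrophages, a group of 180 cells described below, the median of the chemokine list was -0.08 and that of the cytokine list -0.64.

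Growth and matrix genes included several that microglia hardly made. Of 13 tested growth and repair genes 7 were higher and none lower (median 1.92). That median was 0.34 when Gpnmb, Ms4a7 and Fabp5 had to sum to at least 10, and 0.44 without sub-cluster 2. Gdf3, a ligand of the transforming growth factor beta family, stood at 91.3 against 1.28 CPM, Bmp2 at 23.1 against 0.965, Gdf15 at 64.8 against 17.1 and Areg at 31.9 against 0.596 CPM; Arg1, a gene of alternatively activated macrophages, stood at 1.895 CPM and Retnla was at 0. Of 14 tested matrix and adhesion genes 7 were higher and 2 lower (median 1.26, and 0.46 without sub-cluster 2), with the integrin gene Itga4 at 34.4 against 3.09 CPM, Cd44 at 39.96 against 8.31 CPM, Thbs1 at 28.4 against 4.17 CPM and the tetraspanin gene Cd9 lower at 728 against 2462 CPM. Of 17 tested S100, annexin and related genes 11 were higher and none lower (median 1.73), among them Anxa1 (22.1 against 0.653 CPM), Anxa2 (69.5 against 17.7 CPM) and Anxa5 (534 against 160.5 CPM).

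Of 21 tested interferon-response genes 13 were over 2-fold higher and none lower (median 1.11). Irf7, the transcription factor that amplifies the response, stood at 299 against 96.1 CPM, Isg15 at 237 against 70.9, Bst2 at 1330.0 against 439 and Zbp1 at 119 against 37.96 CPM. Others of the list were within 2-fold, such as Ifi27l2a at 1384 against 1309.7 CPM and Ifit3 at 51.5 against 47.1 CPM. Of 17 tested iron and redox genes 7 were higher and 1 lower (median 0.65). The detoxifying enzyme gene Mgst1 stood at 60.5 against 1.13 CPM, the thioredoxin gene Txn1 at 381 against 140.3 and Prdx1 at 962 against 351 CPM, while the iron exporter gene Slc40a1 was lower at 5.21 against 31.2 CPM. Core energy genes were nearly all within 2-fold: all 14 respiratory chain genes and 12 of 13 tested glycolysis genes were within 2-fold, and the exception, the hexokinase gene Hk2, was lower at 69.03 against 160.0 CPM.

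Of 26 tested transcription factor genes 4 were higher and 4 lower. Runx3 stood at 31.1 against 1.28 CPM, Id3 at 77.4 against 10.7, Bhlhe40 at 33.5 against 12.5 and Ets2 at 39.6 against 16.97 CPM. Sall1 and its relative Sall3 (2.37 against 42.99 CPM) and the microglial regulators Mef2a (129 against 366 CPM) and Mef2c (163 against 482 CPM) were the lower ones. Spi1, which encodes the myeloid master regulator PU.1, was level at 372 against 448 CPM. Mitf, Tfeb and Tfe3, which drive lysosomal genes, were level or at low counts, with Mitf at 26.1 against 36.1 CPM. In the transforming growth factor beta list 8 of 9 tested genes were within 2-fold and Smad7, a target and inhibitor of the pathway, was lower at 33.8 against 74.4 CPM. Of 12 tested cell cycle genes 5 were higher and none lower, with Mki67 at 31.4 against 12.1 CPM. Only 30 macrophages (5.42%) met the limit for dividing cells given under sub-cluster 4, and 20 of these were in that sub-cluster. The share was 1.40% of microglia, 1.32% of perivascular, 4.31% of galectin-3-high and 5% of MHC-II-high cells. Of 20 early response and heat shock genes 16 were within 2-fold, with Hspa1a at 5308 against 7634 CPM and Fos at 722 against 609 CPM.

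**Figure D3:**
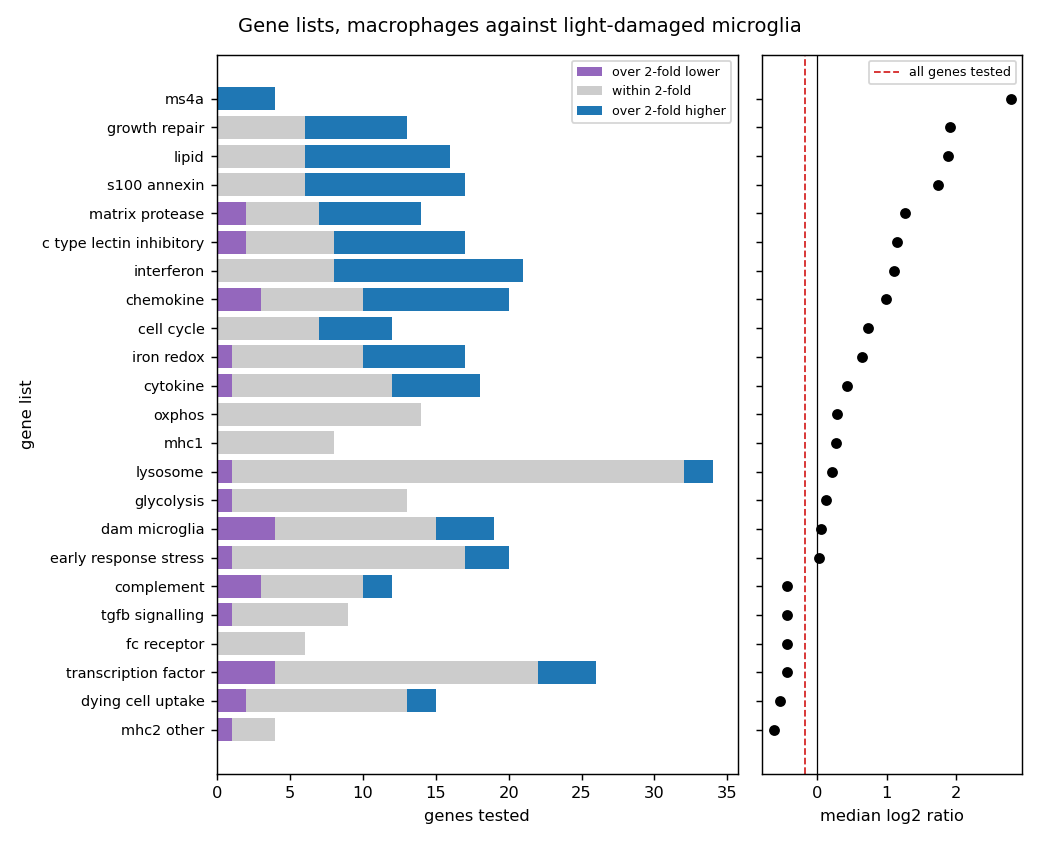
Left, the number of tested genes of each list that were over 2-fold lower, within 2-fold or over 2-fold higher in the macrophages than in light-damaged microglia. Right, the median log2 ratio of the list, with the dashed line at -0.18, the median over all 5211 genes tested. The Ms4a list has the highest median at 2.79, and the 34 genes of the lysosomal list lie mostly within 2-fold.

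The macrophages were not uniform. Clustering the 553 cells alone on 1000 variable genes gave 4 sub-clusters, of 192, 180, 160 and 21 cells, which are left unnamed and described by levels. The genes that define them were used to make them, so no test applies. Several of the leading genes of the macrophages were held by all 4. Acp5 stood at 247, 205, 258 and 208 CPM in sub-clusters 1 to 4, Clec12a at 122, 183, 238 and 208 CPM, Dab2 at 149, 133, 136 and 144 CPM, and Apoe at 79149.6, 77376, 93870.4 and 39972 CPM. Acp5, Clec12a and Dab2 were within 2-fold across the 4, and Apoe across sub-clusters 1 to 3, with sub-cluster 4 over 2-fold below sub-cluster 3. Sall1 was low in all, between 2.19 and 3.95 CPM.

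Sub-cluster 1 (34.7% of the cells, median 12728 UMIs) held most of the Gpnmb. Gpnmb stood there at 1634 CPM against 202 and 52.96 CPM in sub-clusters 2 and 3, and Fabp5 at 1761 against 323 and 36.8 CPM. Spp1 ran the same way, at 7031, 1529 and 560.0 CPM, as did Igf1 at 187, 52.9 and 46.5 CPM and Lgals3 at 986, 408 and 287 CPM. Ctsd, which was level between macrophages and microglia, differed here, at 19788 CPM in sub-cluster 1, 6887 in 2 and 6691 in 3. Outside the lysosomal list above, the phospholipase gene Pld3 stood at 556, 221 and 216 CPM in the same order. The glycosaminoglycan hydrolase gene Naglu stood at 224, 78.02 and 105, and the heparanase gene Hpse at 139, 33.995 and 11.6 CPM. Ccr2 was lowest in it, at 7.11 against 41.2 and 58.1 CPM. Gpnmb was the leading gene of sub-cluster 1, so ranking the same cells by Gpnmb alone is not separate evidence. The 138 cells highest in Gpnmb held 7957 CPM of Spp1 and 2.65 CPM of Ccr2, at a median of 13516 UMIs. The lowest 139 cells held 833 and 50.95 CPM, at a median of 9663 UMIs, and the next 138 held 1933 and 56.4 CPM. Neither of these last groups held a UMI of Gpnmb, so the split between them is arbitrary.

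Sub-cluster 2 (32.5%, median 9979.5 UMIs) held nearly all of the inflammatory messengers. Cxcl1 stood at 1475 CPM there and at 3.95 and 7.104 CPM in sub-clusters 1 and 3, Cxcl2 at 9534 against 129.6 and 67.8, Ccl7 at 1273 against 10.7 and 9.69, Il1b at 3518 against 103 and 127, and Il1rn at 422 against 15.4 and 13.6 CPM. With sub-cluster 2 left out, 5 of the 30 highest genes were no longer past 2-fold against microglia: the log2 ratio of Ccl7 was 0.32, of Cxcl1 0.33, of Sdc4 0.48, of Il1rn 0.23 and of Cxcl2 -0.23, and the other 25 stayed over 2-fold. Other genes of the same kind that were higher in it were Tnf (764 against 44.6 and 21.3 CPM), Il10 (189 against 37.5 and 1.94 CPM), the prostaglandin synthase gene Ptgs2 (186 against 3.56 and 1.29 CPM), Areg (111 against 1.19 and 0 CPM) and the heme oxygenase gene Hmox1 (965 against 217 and 119 CPM). Heat shock and early response genes moved with them: Hspa1a stood at 10858 against 2929 and 3628 CPM, Dnajb1 at 973 against 84.2 and 169, and Atf3 at 961 against 371 and 118 CPM. Their part in the inflammatory pattern, and that of the enzyme digestion, was not tested.

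Sub-cluster 3 (28.9%, median 9561.5 UMIs) held the most Ms4a7, 1511 CPM against 1015 and 1081 CPM, with little Gpnmb or Fabp5. The ion channel gene Tmem176a stood at 931 against 206 and 543 CPM, its neighbour Tmem176b at 1347 against 346 and 852 CPM, the sialic acid receptor gene Siglece at 111 against 24.1 and 58.5 CPM and Txnip, the gene of an inhibitor of thioredoxin, at 151 against 69.5 and 44.6 CPM. Its Csf1r level was 1023 CPM, and 674 and 815 CPM were seen in sub-clusters 1 and 2. Sub-cluster 4 was small, with 21 cells and a median of 21145 UMIs, and 20 of these held at least 5 per 10000 of the cell division genes Mki67, Top2a, Birc5, Cdk1 and Ube2c. Top2a stood there at 444 CPM against at most 17.3 CPM in the others, and Gpnmb, Fabp5 and Spp1 were between sub-clusters 1 and 2, at 629.7, 1220.0 and 4272 CPM.

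**Figure D4:**
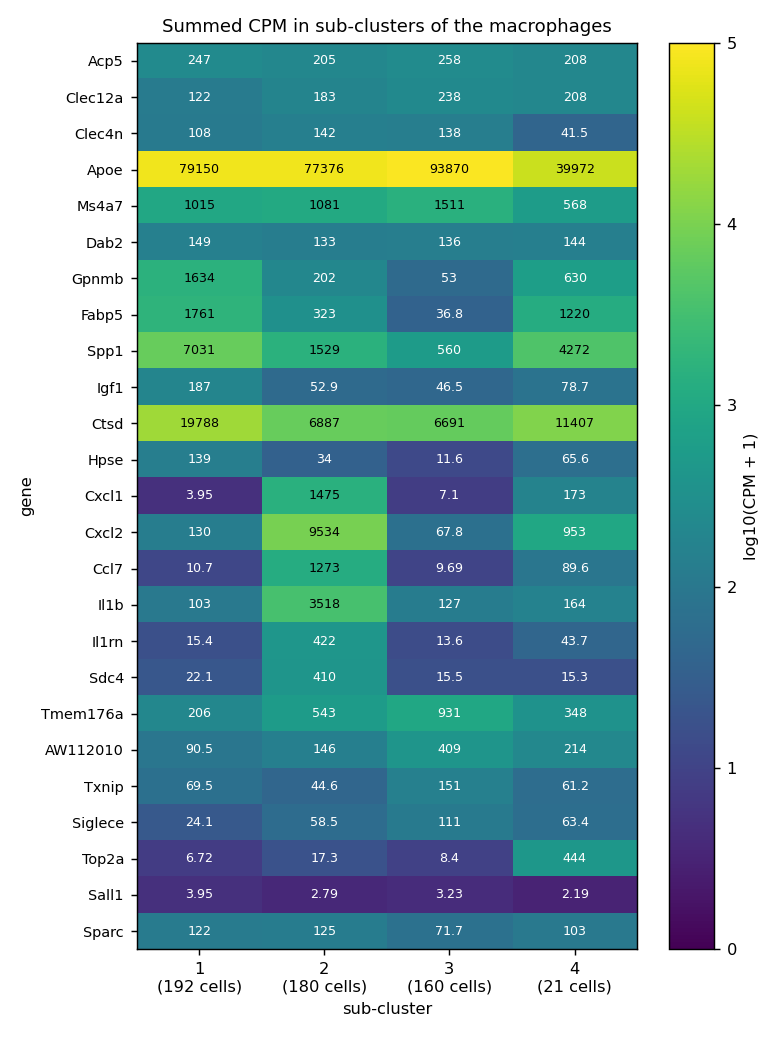
Summed CPM of 25 genes in the 4 sub-clusters of the macrophages, printed in each field and coloured as log10(CPM + 1). Acp5 and Clec12a are within 2-fold across columns, Apoe is lowest in sub-cluster 4, Gpnmb, Fabp5 and Spp1 are highest in sub-cluster 1, the chemokine and interleukin genes in sub-cluster 2, Tmem176a in sub-cluster 3 and Top2a in sub-cluster 4.

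The promoters of 5 genes show the letters upstream of the starts for these patterns: Gpnmb and Ctsd, high in sub-cluster 1, Acp5, within 2-fold in all, and Cxcl1 and Cxcl2, high in sub-cluster 2. The 150 bases before the transcription start, from RefSeq on GRCm38.p6, are given 5′ to 3′ on the gene's strand, with a searched motif in capitals. Acp5 has 3 starts, and the start shown was picked because its window held a motif. Its other starts are not shown. The motifs, chosen after the levels had been seen, were GGAATTTCC, a form of the site of nuclear factor kappa B, CACGTG, the core of the site through which Tfeb and its relatives drive lysosomal genes, and TCATGTG, a form of the Mitf site; both strands of the 250 bases before the start were searched.
Gpnmb, chr6:49036368-49036517, plus strand, no motif: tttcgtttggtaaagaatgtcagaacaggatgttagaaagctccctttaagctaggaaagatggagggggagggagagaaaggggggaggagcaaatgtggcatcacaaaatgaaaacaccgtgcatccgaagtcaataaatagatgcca
Ctsd, chr7:142387828-142387977, minus strand, CACGTG from -98 to -93: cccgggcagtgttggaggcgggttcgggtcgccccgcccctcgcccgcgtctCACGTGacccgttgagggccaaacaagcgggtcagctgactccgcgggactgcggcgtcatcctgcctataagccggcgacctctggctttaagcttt
Acp5, chr9:22130599-22130748, minus strand, 1 of 3 starts, reverse complement of TCATGTG from -90 to -84: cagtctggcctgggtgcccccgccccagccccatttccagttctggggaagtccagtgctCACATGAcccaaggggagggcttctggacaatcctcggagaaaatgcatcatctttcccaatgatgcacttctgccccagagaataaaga
Cxcl1, chr5:90891095-90891244, plus strand, GGAATTTCC from -70 to -62: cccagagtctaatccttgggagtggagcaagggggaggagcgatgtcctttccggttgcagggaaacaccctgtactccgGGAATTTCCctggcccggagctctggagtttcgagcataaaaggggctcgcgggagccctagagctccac
Cxcl2, chr5:90903749-90903898, plus strand, GGAATTTCC from -96 to -88: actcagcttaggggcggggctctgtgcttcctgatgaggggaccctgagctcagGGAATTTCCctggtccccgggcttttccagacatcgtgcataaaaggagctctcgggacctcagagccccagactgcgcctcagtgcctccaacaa

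GGAATTTCC was found in 0.286% of 32851 promoter windows of that length, and Cxcl1 and Cxcl2 were the 2 of the 10 leading genes of sub-cluster 2 that held it, and the 2 of the 30 highest genes; none of sub-cluster 1 did. A window was matched for 9 of each 10 and for 27 of the 30. A gene counted if any of its windows held the motif, while the shares are over single windows. Genes with several starts had more windows, so counts and shares are not the same measure. CACGTG was found in 6.02% of all windows and, of the 10 leading genes of sub-cluster 1, in Ctsd; none of the 30 highest genes or of the leading genes of sub-cluster 2 held it. TCATGTG was found in 3.25% of all windows and, of the 30 highest genes, in Acp5 and Cyp4f18, and in none of the leading genes of either sub-cluster. A match describes letters in the window and not a bound site.

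The nearest population by the limits was the 116 cells that met all of them except that Lgals3, the gene of galectin-3, was at 20 per 10000 or more. Over 1534 genes with at least 100 CPM in either, 55 were over 2-fold higher in the macrophages (3.59%) and 126 over 2-fold lower (8.21%). The galectin-3-high cells held the genes that were high in sub-cluster 1: Gpnmb stood at 1834 CPM in them and 1634 CPM in sub-cluster 1, Fabp5 at 3023 and 1761 CPM, Spp1 at 7808 and 7031 CPM and Igf1 at 173 and 187 CPM, all within 2-fold. Vim stood at 362 CPM in the macrophages against 1464 CPM, 4.05-fold lower, the actin-capping gene Capg 5.18-fold lower, the lipase gene Lpl 5.24-fold lower and the stress-response transcription factor genes Ddit3 and Atf4 5.397-fold and 3.54-fold lower. Higher in the macrophages were Ccl12 (489 against 55.3 CPM), Ccl7 (374 against 60.4 CPM), Tmem176a (489 against 81.1 CPM), Cd72 (261 against 58.1 CPM), Clec4n (119.9 against 27.95 CPM) and Apoe (79417 against 35312 CPM). The higher level of Ccl7 came from sub-cluster 2, since sub-clusters 1 and 3 held 10.7 and 9.69 CPM, below the galectin-3-high cells. Acp5 was within 2-fold, at 235 against 186 CPM. The galectin-3-high cells were deeper, with a median of 14063.5 UMIs.

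Beside 76 perivascular cells, chosen by Mrc1, F13a1, Cd163, Lyve1 and Cbr2, 68 of 1326 genes were over 2-fold higher in the macrophages (5.13%) and 182 over 2-fold lower (13.7%). Ms4a7 was shared, at 1123 CPM in the macrophages and 824 CPM in the perivascular cells, as was Apoe at 79417 and 80987 CPM, but Gpnmb stood at 35.3 CPM in the perivascular cells. Higher in the macrophages were Ccl5 (7.28-fold), Cyp4f18 (6.62-fold), the methionine reductase gene Msrb1 (5.05-fold), Mmp14 (4.301-fold) and Psap, the gene of the saposin precursor, at 4868 against 1350.0 CPM. Lower were Pf4, the gene of platelet factor 4 (62.7 against 689 CPM), the folate receptor gene Folr2 (35.2 against 472 CPM), C4b (19.4 against 324 CPM), Ccl8 (65.4 against 543 CPM) and Ccl7 (374 against 2758 CPM). Cxcl2 stood at 16275 CPM in the perivascular cells, above the 9534 CPM of sub-cluster 2.

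Beside 240 MHC-II-high cells, chosen by Cd74, H2-Aa, H2-Ab1 and H2-Eb1, 43 of 1227 genes were over 2-fold higher in the macrophages (3.5%) and 54 over 2-fold lower (4.4%). These cells held Acp5 and Clec12a at least as high, at 345 and 267 CPM, and Ms4a7 at 754 CPM. Higher in the macrophages were Igf1 at 107 against 4.799 CPM, Spp1 at 3689.8 against 453 CPM, Ctsd at 12323 against 1983 CPM, Fcrls at 491 against 92.1 CPM and Gas6 at 148 against 30.2 CPM. Lower were the antigen-loading genes H2-DMb1 (58.4 against 541 CPM) and H2-DMb2 (14.7 against 142 CPM), S100a6 (9.64 against 124 CPM), and the monocyte genes Ccr2 (33.6 against 169.9 CPM) and Plac8 (25.1 against 103 CPM). Across the populations of the light-damaged library Acp5 was thus highest in MHC-II-high cells, then in the macrophages, galectin-3-high cells and perivascular cells, and lowest in microglia.

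**Figure D5:**
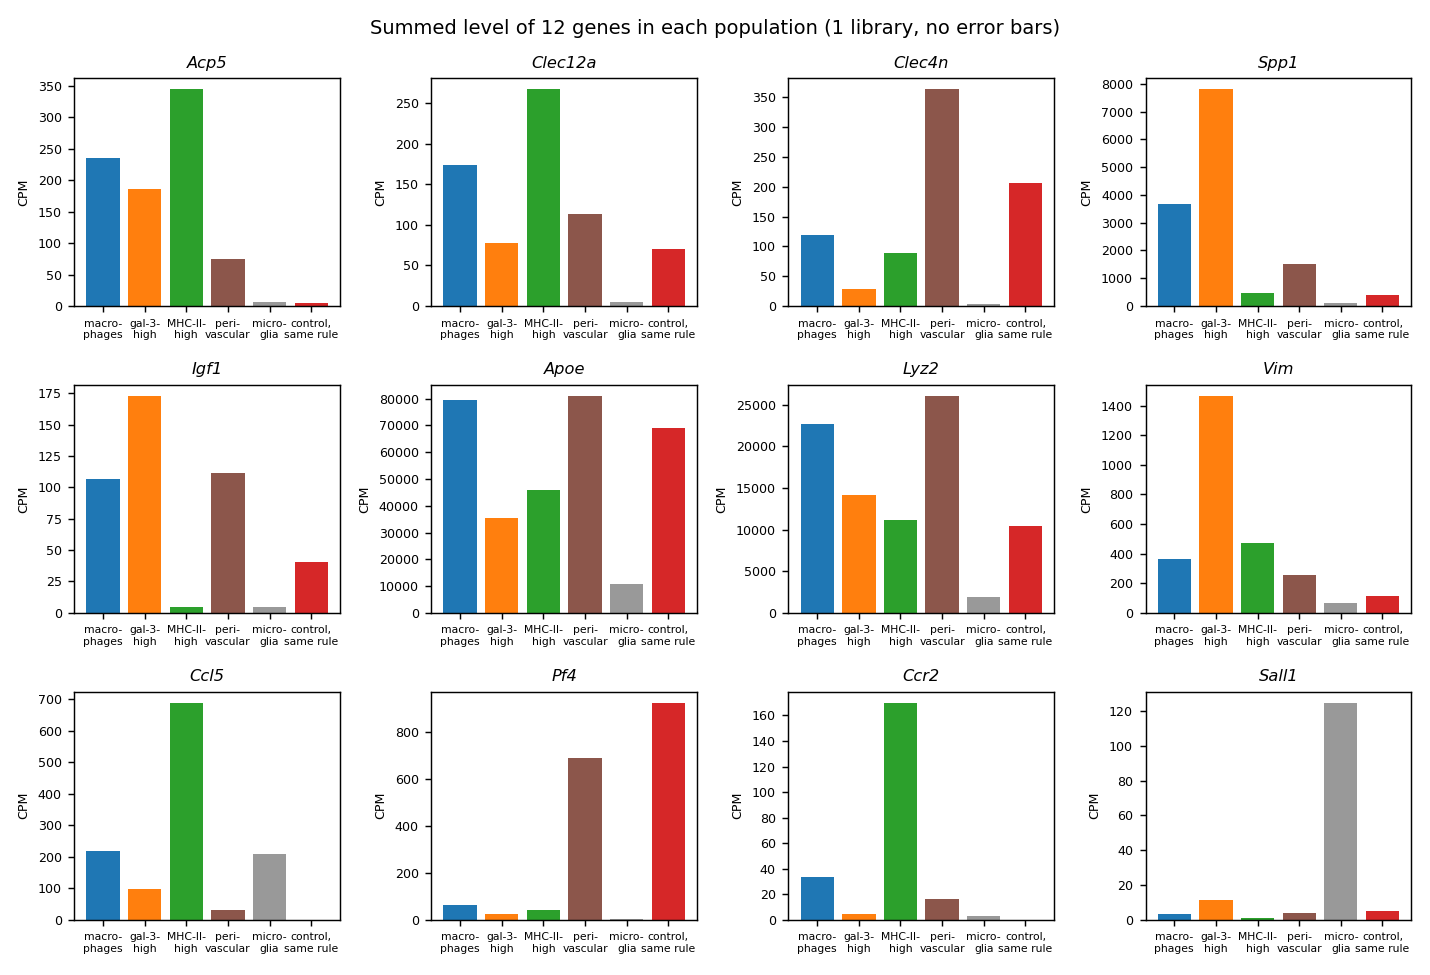
Summed level in CPM of 12 genes in 5 populations of the light-damaged library and in the 32 control cells that met the same limits; each population is a single sum, so there are no error bars, and each panel has its own scale from 0. Acp5 is shared by macrophages, galectin-3-high and MHC-II-high cells, Clec12a is highest in MHC-II-high cells, then macrophages, Spp1 and Igf1 by macrophages and galectin-3-high cells, and Sall1 is high in microglia alone of the 6.

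The 32 control cells that met the limits held 198983 UMIs, and against control microglia 256 of 1497 genes at 100 CPM or more were over 2-fold higher in them (17.1%) and 315 over 2-fold lower (21%). Of the 30 highest genes of the light-damaged macrophages, 28 were over 2-fold higher in the control pair too. Of the 20 lowest, 19 were over 2-fold lower. No minimum level in the control pair was asked of these genes, so some can rest on few UMIs there. The shares above, over genes at 100 CPM or more, are thus not their background. Both pairs were chosen by the same limits, so these counts are a description. Apoe stood at 68926 CPM in the 32 control cells and 2532 CPM in control microglia, Clec12a at 70.4 against 1.73, Ms4a7 at 819 against 13.02, Gpnmb at 151 against 0.922 and Sall1 at 5.03 against 107 CPM. The control cells also held more Mrc1, a gene of the perivascular limit, at 236 CPM (30.01 in the light-damaged macrophages). Cd74, a gene of the MHC class II limit, stood at 1528 CPM in them (499 in the light-damaged macrophages).

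Set against those 32 cells, 224 of 1393 genes were over 2-fold higher in the light-damaged macrophages (16.1%) and 251 over 2-fold lower (18%). Acp5 stood at 235 CPM against 1 UMI or 5.03 CPM, 46.8-fold with an interval of 8.38 to 1848. Ccl5 stood at 217 CPM against 0 UMIs, at least 14.4-fold higher against a floor of 3 counts in the control cells. Spp1 stood at 3689.8 against 387 CPM (9.54-fold, 7.63 to 12.1), Lgals3bp at 462 against 65.3 CPM, Ms4a4c at 200.4 against 10.1 CPM and Zbp1 at 119 against 20.1 CPM. Lower than in the 32 control cells were Pf4 (62.7 against 925 CPM), Vcam1 (23.2 against 427 CPM), Bmp2 (23.1 against 422 CPM) and Cxcl2 (2839.6 against 14383 CPM). Pf4 and Cxcl2 also stood higher in the perivascular cells than in the light-damaged macrophages. Whether the 32 cells are of the same kind as the light-damaged macrophages was not tested. Rod transcripts differed as well, with Sag at 26.9 CPM after light damage and 101 CPM in the 32 control cells, and Gngt1, a rod transducin gene, at 15.8 and 256 CPM. Light damage, pool, library and the kinds of cell that met the limits cannot be told apart in these values.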

How the data were processed

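Per the labels' protocols, live YFP-positive retinal cells of 1 pool of mice per group were made into a 10x Genomics library of 3' ends. The deposited values of each library are UMI counts per gene and barcode, whole numbers without normalization, with gene and barcode names. Cell Ranger 2.0.0 and the build mm10 were used, per the submitters' processing notes. Further steps are not given in the labels.

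Counts were summed per population and scaled to CPM. Ratios carry exact conditional 95% intervals of 2 Poisson counts and shares carry Clopper-Pearson intervals; these reflect counting error alone. A gene counted as higher or lower beyond 2-fold with at least 20 CPM in either population (100 CPM for populations other than microglia). With 1 library per group no p-value was computed. Named genes were the 30 highest and 20 lowest ratios at 100 CPM or more, the genes of the limits, genes of the lists, the 15 highest and lowest against each other population, and the leading genes of sub-clusters. The members and lists were chosen with earlier results of these data known. Where 1 symbol had several identifiers (56 symbols), the one with the most UMIs was used; of 27998 identifiers 27645 were found in the GENCODE annotation used for coordinates (GRCm38, the assembly of mm10). A few listed genes, among them Clec7a and Trbc2, were not found under these names and were not analysed here, and some measured genes are not reported here.

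Doublets were scored with Scrublet in scanpy 1.11.5. Its threshold marked 1 control and 3 light-damaged barcodes, so it had not worked and none were removed; an alternative removed the highest scores. Sub-clusters used 1000 variable genes, 20 principal components, 15 neighbours and Leiden clustering at resolution 0.4. The script for ratios was tested on simulated counts. Other software was Python 3.11.15, NumPy 2.4.6, SciPy 1.17.1 and, for TMM scaling, edgeR 4.0.16.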

Additional observations from a re-analysis of the deposited data

Results flagged for a closer look

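Cyp4f18, which encodes a cytochrome P450 of leukocytes, pointed in different directions in the libraries. Its ratio of macrophages to microglia was 5.88 in the light-damaged library and 0.851 in the control library, where the interval ran from 0.102 to 3.11 because the 32 control cells held 2 UMIs of it. The difference between the libraries was not tested.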

How the results depend on the processing

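The number of macrophages was 268 with a microglial sum under 5 and 294 with only cells of 5000 to 12000 UMIs, and between 410 and 551 under the other alternatives. With a minimum of 50 CPM, 171 genes were over 2-fold higher and 271 lower; with a minimum of 5 CPM, 547 and 874. The counts under the other alternatives, including other cell filters, removal of high doublet scores, the narrower limits, a narrower microglial reference and other scalings, were within 1.5 times of 305 and 471. For the 50 named genes, 600 log2 ratios under alternatives were computed: 437 lay within the counting interval of the reported ratio, 162 outside it in the same direction, and 1 changed sign, Cxcl2 at -0.23 without sub-cluster 2. Leaving out sub-clusters 1 and 2 and leaving out barcodes of both libraries were chosen after seeing the data. Of 324 list medians, 287 moved by less than 0.25, and none that was over 1 in size changed sign. Sign changes of smaller medians were not counted, and those of the chemokine and cytokine lists turned negative without sub-cluster 2. The largest shift, 1.58, was that of the growth and repair list with a first sum of at least 10. A count of 1 or 2 UMIs in the 32 control cells limits every ratio that rests on them. No paired analysis was possible because each group had 1 library.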

Other observations

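Low in all 5 sums of the limits, that of Gpnmb, Ms4a7 and Fabp5 included, were 275 light-damaged cells, among them the 63 with a first sum of 2.5 to 5. Ms4a7 stood at 108 CPM in them and Gpnmb at 8.37 CPM, yet Clec12a stood at 132 CPM, Mndal at 134 CPM, Tgfbi at 411 CPM and Apoe at 35645 CPM, with Sall1 at 16.0 CPM. The 245 cells with an intermediate microglial sum held Cxcl1 at 6.45 CPM and Ccl7 at 37.7 CPM, against 434 and 374 CPM in the macrophages, while Acp5 and Clec12a stood at 114 and 155 CPM.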
